A study of Mus musculus with 2 samples.

Results

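The redox partners of the steroid-making cytochrome P450 enzymes are the proteins that carry electrons from NADPH or NADH to those enzymes. The set described here holds 7 genes, chosen by name: Fdx1, Fdxr, Por, Cyb5a, Cyb5b, Cyb5r1 and Cyb5r3. All transcript models that the deposited tables assign to these gene names were counted, 122 models in replicate 1 and 114 in replicate 2. The members are 7 of the 18580 annotated genes with reads in either library, and every member had reads in both.

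Steroid synthesis in the adrenal cortex runs through P450 enzymes in mitochondria and in the endoplasmic reticulum, and each compartment has its own electron supply. In mitochondria, ferredoxin reductase (Fdxr) takes electrons from NADPH and passes them to the iron-sulfur protein ferredoxin (Fdx1, also called adrenodoxin), which feeds Cyp11a1, Cyp11b1 and Cyp11b2. In the endoplasmic reticulum, P450 oxidoreductase (Por) feeds Cyp21a1 and Cyp17a1 directly, while cytochrome b5 (Cyb5a) assists some P450 reactions and is itself reduced by NADH-cytochrome b5 reductase (Cyb5r3) or by Por.

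The study sequenced RNA from adrenal gland with long reads, so that 1 read can span a whole transcript. Both samples were total RNA from male mice of strain B6CASTF1/J, a first-generation cross of a C57BL/6 and a castaneus strain, aged 10 days, and no treatment is labelled. The design has 1 group with 2 replicates and no second condition. Whether the replicates are separate animals cannot be told from the labels, which give both a common donor and are not uniform on the animal behind replicate 2. The p-values below compare the libraries, not conditions, and take each read as a separate observation. They set a difference between these 2 samples against counting error alone and hold no measure of the spread between samples. Such a difference may be technical.

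Replicate 1 held 927914 reads on annotated genes and replicate 2 held 1303420. Levels are given as CPM, reads per 1000000 reads on annotated genes, with exact Poisson intervals at 95%. Where a gene or transcript had 0 reads, the limit stated is that of 3 reads, which is 3.23 CPM in the smaller library and 2.30 CPM in the larger. Intervals and this limit cover counting error only, since PCR copies of a molecule are not separate observations. A long read was counted as 1 molecule, so levels were compared between genes without dividing by length. The libraries nevertheless differed with transcript length, as described below, and levels of long and short transcripts carry that difference.

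On mouse build mm10, Fdx1 (ENSMUSG00000032051.9) lies at chr9:51943306-51963556 and Fdxr (ENSMUSG00000018861.8) at chr11:115268024-115277050, both on the minus strand. Por (ENSMUSG00000005514.14) lies at chr5:135670033-135735326, Cyb5a (ENSMUSG00000024646.14) at chr18:84838704-84879871 and Cyb5b (ENSMUSG00000031924.4) at chr8:107150640-107187471, all on the plus strand. Cyb5r1 (ENSMUSG00000026456.18) lies at chr1:134405559-134411740 on the plus strand and Cyb5r3 (ENSMUSG00000018042.18) at chr15:83153494-83172592 on the minus strand.

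Fdx1, the mitochondrial ferredoxin, had the most reads of the members in both libraries. It had 1045 reads in replicate 1, or 1126 CPM (1059 to 1197), and 1931 reads in replicate 2, or 1481 CPM (1416 to 1549). Its mean of 1304 ± 251 CPM (SD, n = 2) ranked 70 among all genes with reads. Fdx1 took 37.0% of the reads of the 7 members in replicate 1 and 55.9% in replicate 2.

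Nearly all Fdx1 reads on annotated transcripts came from 1 of them. Fdx1-201, of 875 nt and 188 codons, took 979 of 994 such reads in replicate 1 (98.5%) and 1714 of 1723 in replicate 2 (99.5%). Fdx1-202, of 2759 nt and 166 codons, had 15 reads in replicate 1 and 9 in replicate 2. These were 1.51% (Clopper-Pearson interval 0.847% to 2.48%) and 0.522% (0.239% to 0.989%) of the annotated reads. Fdx1-202 ends in another last exon, which gives the protein another carboxyl end and leaves it 22 codons shorter. The coding parts of both last exons, read 5′ to 3′ on the minus strand from the GENCODE M21 transcripts, show the end that each transcript encodes. The first lies at chr9:51943535-51943649 and the second at chr9:51947149-51947197, and capitals mark the stop codon.
Fdx1-201 last exon: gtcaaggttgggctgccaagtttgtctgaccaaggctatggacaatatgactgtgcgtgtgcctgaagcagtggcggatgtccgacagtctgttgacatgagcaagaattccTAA
Fdx1-202 last exon: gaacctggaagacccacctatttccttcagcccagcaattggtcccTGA

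Fdxr, the flavoprotein that reduces Fdx1, had 519 reads in replicate 1, or 559 CPM (512 to 610), and 581 in replicate 2, or 446 CPM (410 to 484). Its mean was 503 ± 80.3 CPM (SD, n = 2), rank 277 among all genes. Fdx1 exceeded Fdxr in both libraries and their ranges did not overlap. The ratio of Fdx1 to Fdxr reads was 2.01 (1.81 to 2.24) in replicate 1 and 3.32 (3.03 to 3.65) in replicate 2. The intervals of this ratio did not overlap. The main transcripts differ in length, 875 nt for Fdx1 and 1948 nt for Fdxr, and the libraries differed by a trend with length. The log2 ratio of replicate 2 over replicate 1 expected from length alone was 0.64 for Fdx1 and -0.29 for Fdxr. Less that trend, Fdx1 was at -0.24 and Fdxr at -0.04. The ratio of Fdx1 to Fdxr reads was itself not tested against the trend.

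Fdxr reads showed a second form of exon 4 in both libraries, which is shown here because it was the most-read unannotated chain of any member. The exon covers chr11:115271877-115271999, and its 123 bases are printed 5′ to 3′ on the minus strand, from the GENCODE M21 sequence of Fdxr-201. Capitals mark the bases that are left out when splicing uses an acceptor inside the exon. In the first line these are the 24 bases before the nearer inner acceptor, and in the second the 54 bases before the farther one.
Exon 4 with 24 bases marked: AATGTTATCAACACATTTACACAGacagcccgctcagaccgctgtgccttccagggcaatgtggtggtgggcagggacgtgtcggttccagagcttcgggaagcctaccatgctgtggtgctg
Exon 4 with 54 bases marked: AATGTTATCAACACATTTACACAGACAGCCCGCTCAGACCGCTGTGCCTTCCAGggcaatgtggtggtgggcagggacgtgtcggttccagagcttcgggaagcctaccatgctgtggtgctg

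The annotated start of exon 4 was used by 431 of 471 reads spliced from exon 3 into exon 4 in replicate 1 and by 447 of 499 in replicate 2. The 54-base form was used by 38 and 42 of these reads. That was 8.07% (Clopper-Pearson interval 5.77% to 10.9%) in replicate 1 and 8.42% (6.13% to 11.2%) in replicate 2, with a mean of 8.24 ± 0.247% (SD, n = 2). The shares of the 54-base form differed by less than their counting intervals. The 24-base form had 2 reads (0.425%) in replicate 1 and 10 (2.00%) in replicate 2, with overlapping intervals. Both skipped stretches end in AG, the usual end of an intron, and both keep the reading frame, removing 18 or 8 codons. GENCODE M21 has each inner acceptor in a shorter noncoding transcript of the gene, the 54-base site in Fdxr-202 and the 24-base site in Fdxr-204. Neither of those annotated transcripts had a read. Joined to the remaining exons of Fdxr-201, the 54-base form had 34 reads on 1 chain of 12 exons in replicate 1 and 38 in replicate 2.

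**Figure D1:**
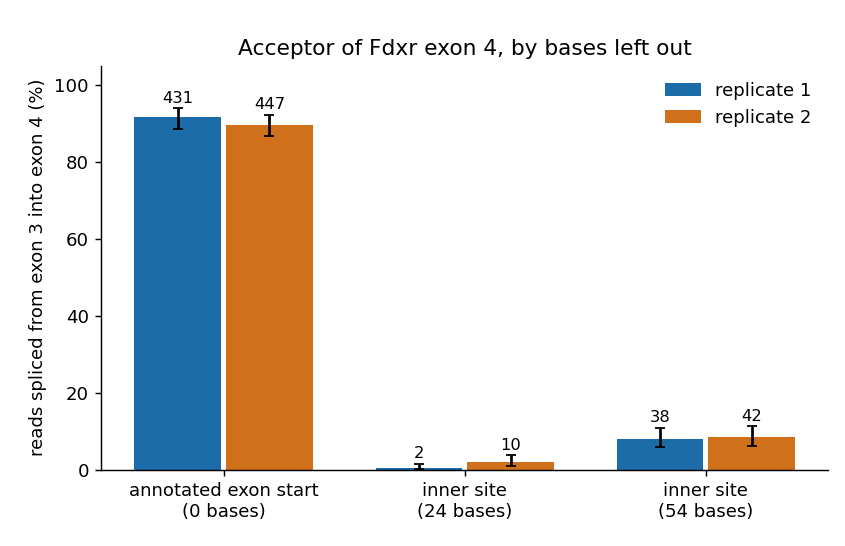
Share of the reads spliced from Fdxr exon 3 into exon 4 that used each acceptor, in percent, by library; bars start at 0, error bars are 95% Clopper-Pearson intervals and the number of reads stands above each bar. The 54-base form took 8.07% and 8.42%, and the annotated start took 91.5% and 89.6%.

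Por, the diflavin reductase of the endoplasmic reticulum, had 255 reads in replicate 1, or 275 CPM (242 to 311). In replicate 2 it had 225 reads, or 173 CPM (151 to 197), and its mean was 224 ± 72.3 CPM (SD, n = 2). All of its annotated reads, 186 and 102, lay on Por-201, of 16 exons and 678 codons. Por-202, which has 15 exons and 649 codons, had 0 reads, which allows a share of up to 1.61% of annotated reads in replicate 1 and 2.94% in replicate 2. A chain with another first exon had 3 reads in each library. It started at chr5:135674581, where the annotation starts the noncoding transcript Por-207, and joined the second exon of Por-201. The protein-coding transcript Por-209 starts close by, at chr5:135674585, and had 0 reads in both libraries.

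Cyb5a, the cytochrome b5 of the endoplasmic reticulum, had 129 reads in replicate 1, or 139 CPM (116 to 165). In replicate 2 it had 384 reads, or 295 CPM (266 to 326), and its mean was 217 ± 110.0 CPM (SD, n = 2). Cyb5b, the cytochrome b5 of the outer mitochondrial membrane, went the other way, with 302 reads, or 325 CPM (290 to 364), in replicate 1 and 167 reads, or 128 CPM (109 to 149), in replicate 2. Cyb5a had 0.427 reads for each Cyb5b read in replicate 1 (0.345 to 0.527) and 2.30 in replicate 2 (1.91 to 2.77). Cyb5b was the more abundant b5 in replicate 1 and Cyb5a in replicate 2, so these samples do not give the pair an order.

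Cytochrome b5 has a membrane form, held by an anchor at its carboxyl end, and in rabbit and human a soluble form of red cells is made from an mRNA with an additional exon that ends the reading frame before the anchor. In the annotation used here, Cyb5a-204 has 5 exons and 134 codons, and Cyb5a-201 has 6 exons and 98 codons and is classed as a target of nonsense-mediated decay. Cyb5a-204 took 126 of 126 annotated reads in replicate 1 and 357 of 359 in replicate 2. Cyb5a-201 had 0 reads in both, which allows a share of up to 2.38% in replicate 1 and 0.836% in replicate 2. Cyb5a-201 was thus not detected as an annotated transcript at this depth. Cyb5a-205, with 110 codons, also had 0 reads. The remaining 2 reads of replicate 2 lay on Cyb5a-208, of 54 codons and also classed for decay, and on the retained-intron transcript Cyb5a-202. An unannotated Cyb5a chain with 1 read in replicate 1 held an intron at chr18:84873170-84876833, which ends before the matching intron of Cyb5a-204. Its reading frame was not examined. Erythroid genes were present in both libraries, and 5 of them (4 globin genes and Alas2) summed to 1329 CPM in the library of replicate 1 and to 4599 in that of replicate 2. Cyb5b had annotated reads on Cyb5b-201 alone, of 146 codons, 233 in replicate 1 and 71 in replicate 2.

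Cyb5r3, the NADH-dependent reductase of cytochrome b5, had 547 reads in replicate 1, or 589 CPM (541 to 641). In replicate 2 it had 129 reads, or 99.0 CPM (82.6 to 118). It was the second most abundant member in replicate 1 and the second least abundant in replicate 2. Its mean of 344 CPM came with an SD of 347 (n = 2), larger than the mean itself. Cyb5r1, a related b5 reductase, had 29 reads, or 31.3 CPM (20.9 to 44.9), in replicate 1 and 37 reads, or 28.4 CPM (20.0 to 39.1), in replicate 2. Its mean of 29.8 ± 2.03 CPM (SD, n = 2) was the lowest of the members. There were 18.9 Cyb5r3 reads for each Cyb5r1 read in replicate 1 (13.0 to 28.4) and 3.49 in replicate 2 (2.40 to 5.17).

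Cyb5r3 has a membrane-bound form, whose amino end carries a lipid anchor, and in human a soluble form of red cells that starts at an inner methionine. Cyb5r3-201, of 301 codons, took 509 of 518 annotated reads in replicate 1 (98.3%) and 83 of 88 in replicate 2 (94.3%). Cyb5r3-203 starts from another first exon, has 278 codons and had 9 and 5 reads. Those were 1.74% (0.797% to 3.27%) and 5.68% (1.87% to 12.8%) of annotated reads, with intervals that overlap. Cyb5r3-202, of 313 codons, had 0 reads, which allows up to 0.579% in replicate 1 and 3.41% in replicate 2. The coding bases that distinguish the 2 detected forms are the start of the frame of Cyb5r3-201 in exon 1 (chr15:83172112-83172132) and its exon 2 (chr15:83166156-83166206) up to the codon where Cyb5r3-203 starts. They are printed 5′ to 3′ on the minus strand from GENCODE M21, with the start codon of each form in capitals, and together hold the 23 codons that Cyb5r3-203 lacks followed by its own start.
Exon 1 of Cyb5r3-201: ATGggggcccagctgagcacg
Exon 2 of Cyb5r3-201: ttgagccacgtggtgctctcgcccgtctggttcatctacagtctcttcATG

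By mean level, the order was Fdx1, Fdxr, Cyb5r3, Cyb5b, Por, Cyb5a and Cyb5r1. Fdx1 stood above its neighbour Fdxr in both libraries, and Cyb5r1 below its neighbour Cyb5a in both. In the 4 steps between Fdxr and Cyb5a, each neighbouring pair had overlapping ranges and changed order between the libraries. Summed over the members, the level was 3046 and 2650 CPM in replicates 1 and 2, or 2848 ± 280 CPM (SD, n = 2).

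**Figure D2:**
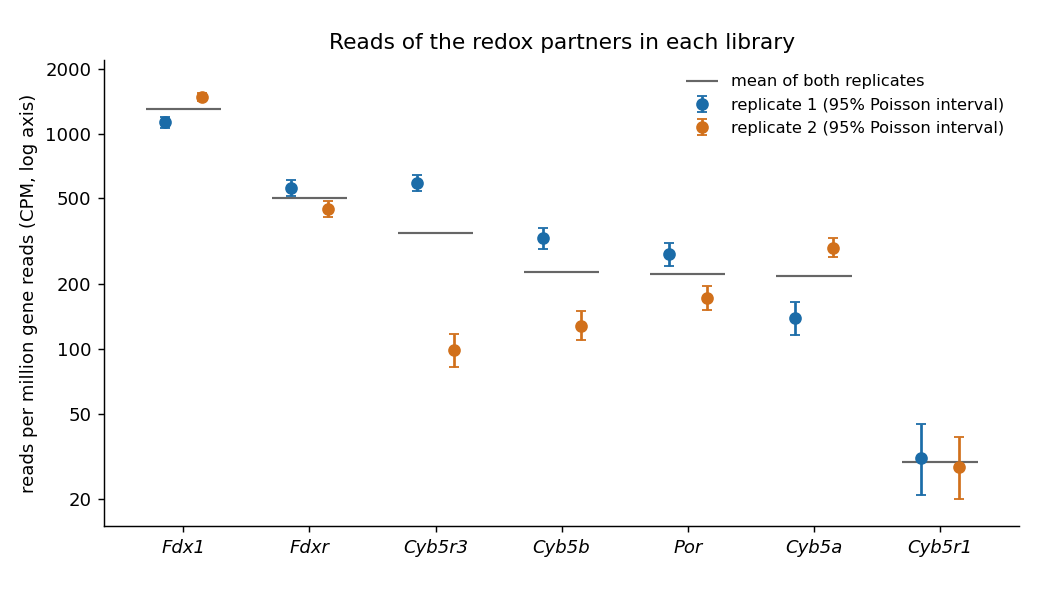
Reads per 1000000 reads on annotated genes for each member (CPM, log axis), with points for replicate 1 and replicate 2, 95% Poisson intervals and a grey line at their mean. Fdx1 sits highest in both libraries and Cyb5r1 lowest, while Cyb5r3 spans 589 to 99.0 CPM.

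Between the libraries, 6 of the 7 members differed by Fisher's exact test on the reads of the gene and the remaining reads on annotated genes, with Benjamini-Hochberg adjustment over 11650 genes at a threshold of 0.05. Fdx1 and Cyb5a were higher in replicate 2, and Fdxr, Por, Cyb5b and Cyb5r3 were lower. Over all genes tested, 13.0% were called higher in replicate 2 and 22.2% lower, 35.1% in either direction. The median log2 ratio of the members, replicate 2 over replicate 1, was -0.33, against -0.25 over all genes tested, and the median absolute log2 ratio was 0.67 against 0.62. Well-covered genes are called at small ratios by such a test, so the ratio itself is given for each member.

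Cyb5r3 had a log2 ratio of -2.57, 5.94-fold lower in replicate 2, and was called with an adjusted p of 6.12e-95 by Fisher's exact test. Only 2.48% of the genes tested had a larger absolute log2 ratio. Cyb5b had -1.34 (adjusted p = 1.31e-21, Fisher's exact test), with 16.5% of genes beyond it. Cyb5a had 1.08 (adjusted p = 2.26e-13, Fisher's exact test), with 24.8% of genes beyond it. These 3 genes differed by over 2-fold, and Cyb5r3 stood out among all genes.

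Por had a log2 ratio of -0.67 (adjusted p = 3.97e-06, Fisher's exact test), and 46.6% of genes tested lay beyond it. Fdx1 had 0.40 (adjusted p = 1.07e-11, Fisher's exact test) and Fdxr -0.33 (adjusted p = 0.00104, Fisher's exact test), with 67.1% and 72.7% of genes beyond them. The absolute ratio of Por was thus near the median of 0.62 over all genes tested, and those of Fdx1 and Fdxr were below it. Counted on full annotated transcripts alone, Por had a log2 ratio of -1.24 (adjusted p = 1.16e-11, Fisher's exact test). Such transcripts held a smaller share of Por reads in replicate 2, as given below. Cyb5r1 had -0.14 and was not called (adjusted p = 0.834, Fisher's exact test), and its few reads allow a ratio of replicate 2 to replicate 1 from 0.544 to 1.53. Scaled by TMM factors, which raised every log2 ratio by 0.26, Fdxr was no longer called (log2 ratio -0.06, adjusted p = 0.663 by exact binomial test).

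The ratio between the libraries depended on transcript length over all genes. Genes whose most-read transcript was shorter than 1000 nt had a median log2 ratio of 1.00, and those of 3000 nt or more had -0.46. The 2 members that were higher in replicate 2 have the shortest transcripts of the set, Cyb5a-204 of 833 nt and Fdx1-201 of 875 nt. Measured against the ratio expected at its length, Fdx1 was lower in replicate 2 by 0.24 on the log2 scale (log2 ratio less trend -0.24, adjusted p = 0.000163, exact binomial test). The direction of the Fdx1 difference thus turned with this adjustment. Its size was below the median absolute value on that scale over all genes tested, which was 0.48.

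On the same scale Cyb5a kept 0.36 and was not called (adjusted p = 0.0514, exact binomial test). Por had -0.27 (adjusted p = 0.137, exact binomial test) and Fdxr -0.04 (adjusted p = 0.838, exact binomial test). Cyb5b had -0.87 (adjusted p = 4.42e-09, exact binomial test) and Cyb5r3 -2.20 (adjusted p = 9.98e-68, exact binomial test). Against the length trend 0 members were called higher and 3 lower, where 12.9% and 11.0% of all genes were called. Cyb5r3 and Cyb5b were called lower in replicate 2 with and without the length adjustment, and Fdx1 only with it. Cyb5r1, the other b5 reductase of the set, had -0.14 without the adjustment and 0.12 with it. It was not called either way.

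**Figure D3:**
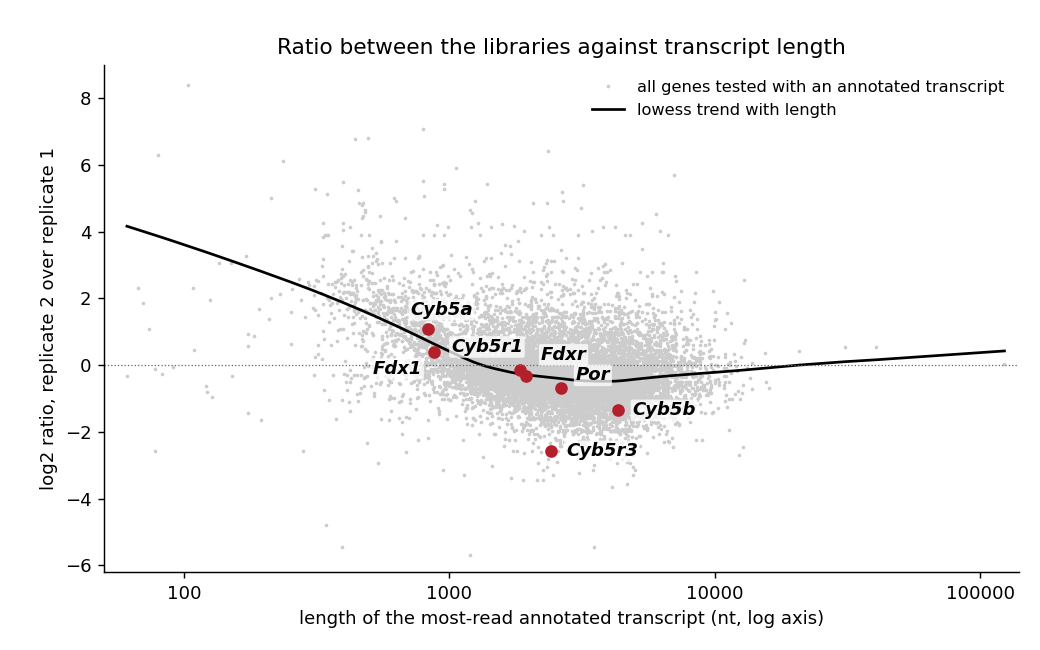
Log2 ratio of replicate 2 over replicate 1 for each gene tested (grey points) against the length of its most-read annotated transcript in nt (log axis), with the lowess trend as a black line and the 7 members in red. Cyb5a and Fdx1 lie at the short end where the trend is above 0, and Cyb5r3 lies at -2.57, farthest of the members from the trend.

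The reads of the members also differed in completeness. Each read belongs to a class of transcript model, either Known (a full annotated transcript), ISM (part of an annotated chain of exons), NIC (annotated splice sites in a new combination), NNC (a splice site not annotated) or Genomic (within a gene and mostly unspliced). Over all genes, Known models held 79.8% of gene reads in replicate 1 and 73.9% in replicate 2. The Known share of Cyb5b was 77.2% in replicate 1 and 42.5% in replicate 2, and that of Por 72.9% and 45.3%. The Known share of Cyb5r3 was 94.7% and 68.2%, and that of Fdx1 95.1% and 89.2%.

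These 4 of 7 members had a lower Known share in replicate 2 by Fisher's exact test, with adjusted p from 3.09e-13 (Cyb5r3) to 4.77e-07 (Fdx1), where 19.7% of all genes tested were called lower and 0.568% higher. The Known share of Fdxr was 76.1% and 69.7% (adjusted p = 0.0769, Fisher's exact test), and that of Cyb5a 97.7% and 93.5% (adjusted p = 0.229, Fisher's exact test). Cyb5r1, with 82.8% and 75.7%, was not called either (adjusted p = 0.823, Fisher's exact test). All 7 shares were lower in replicate 2. Among Known reads, the share of the main transcript was tested for the 5 members with more than 1 transcript read, and 0 were called by Fisher's exact test, against 2.17% of genes tested. The smallest adjusted p was 0.223, for Fdx1, by the same exact test. At an unadjusted p under 0.05 there were 2, Fdx1 (p = 0.0104) and Cyb5r3 (p = 0.0394), by Fisher's exact test.

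**Figure D4:**
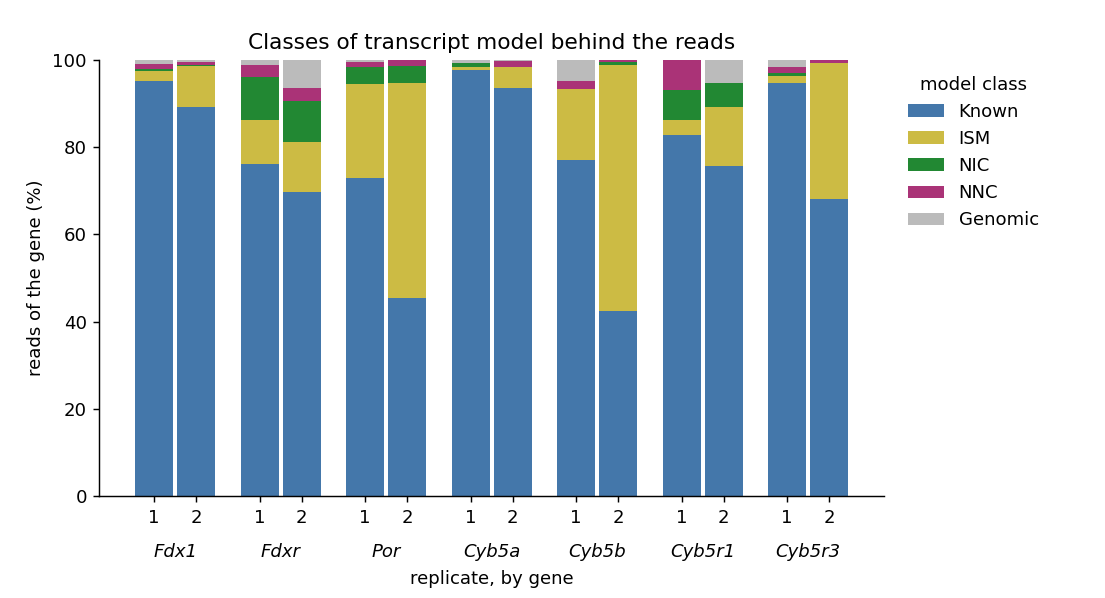
Share of the reads of each member, in percent, on each class of transcript model, with 1 bar for each library. Known models fill over 89% of Fdx1 and over 93% of Cyb5a in both libraries, while the ISM part of Cyb5b grows from 16.2% to 56.3% and that of Por from 21.6% to 49.3%.

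Single-exon pieces (ISM or Genomic models with 1 exon) were counted separately, because over all genes they rose from 3.62% of gene reads in replicate 1 to 10.1% in replicate 2. For Cyb5b they were 63 of 302 reads (20.9%) in replicate 1 and 93 of 167 (55.7%) in replicate 2. For Cyb5r3 they were 9 of 547 (1.65%) and 37 of 129 (28.7%). The 5 members Fdx1, Fdxr, Por, Cyb5b and Cyb5r3 had a higher share in replicate 2 by Fisher's exact test, with adjusted p from 2.36e-19 (Fdx1) to 0.00105 (Por), where 19.8% of all genes tested were called higher and 0.268% lower. Cyb5a, with 0.775% and 4.17%, was not called (adjusted p = 0.261, Fisher's exact test), nor was Cyb5r1, with 0 of 29 and 2 of 37 reads (adjusted p = 0.822, Fisher's exact test).

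Most pieces lay in the last exon. Of the pieces of all members, 79 of 90 reads in replicate 1 and 345 of 365 in replicate 2 fell inside the last exon of the main transcript. All 63 and 93 of Cyb5b did, in a last exon of 3894 bases that makes up most of its 4316 nt. All pieces of Fdxr and Cyb5r3 did so too, and 153 of 162 of Fdx1 in replicate 2, but 0 of 9 in replicate 1. Of the Por pieces, 1 of 2 in replicate 1 and 9 of 18 in replicate 2 lay there. Cyb5b alone gave 63 of the 79 in replicate 1. Such pieces cannot be told apart from reads of a separate short transcript in these tables. Without single-exon pieces the log2 ratio of Cyb5r3 was -2.93 and that of Cyb5b -2.07. Leaving them out was bound to lower both ratios, since they held a larger share of these genes' reads in replicate 2. What part such pieces have in the difference was not tested.

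Spliced reads that lacked the first introns were common in Por. The first intron of Por-201 was present as spliced in 192 of 255 reads in replicate 1 (75.3%) and 110 of 225 in replicate 2 (48.9%). The last, intron 15, was present in 253 of 255 (99.2%) and 203 of 225 (90.2%). The steepest part of this rise in replicate 2 lay between intron 9 (56.4%) and intron 13 (89.8%). In Cyb5b the 4 introns stayed together, at 77.8% to 78.5% in replicate 1 and 43.1% to 44.3% in replicate 2. Cyb5r3 had 94.5% at intron 1 and 98.4% at intron 8 in replicate 1, and 64.3% and 71.3% in replicate 2. In Fdxr the share rose from 86.3% at intron 1 to 98.7% at intron 11 in replicate 1, and from 79.5% to 93.3% in replicate 2, with a dip at intron 3, where the reads with an inner acceptor of exon 4 drop out of the count.

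**Figure D5:**
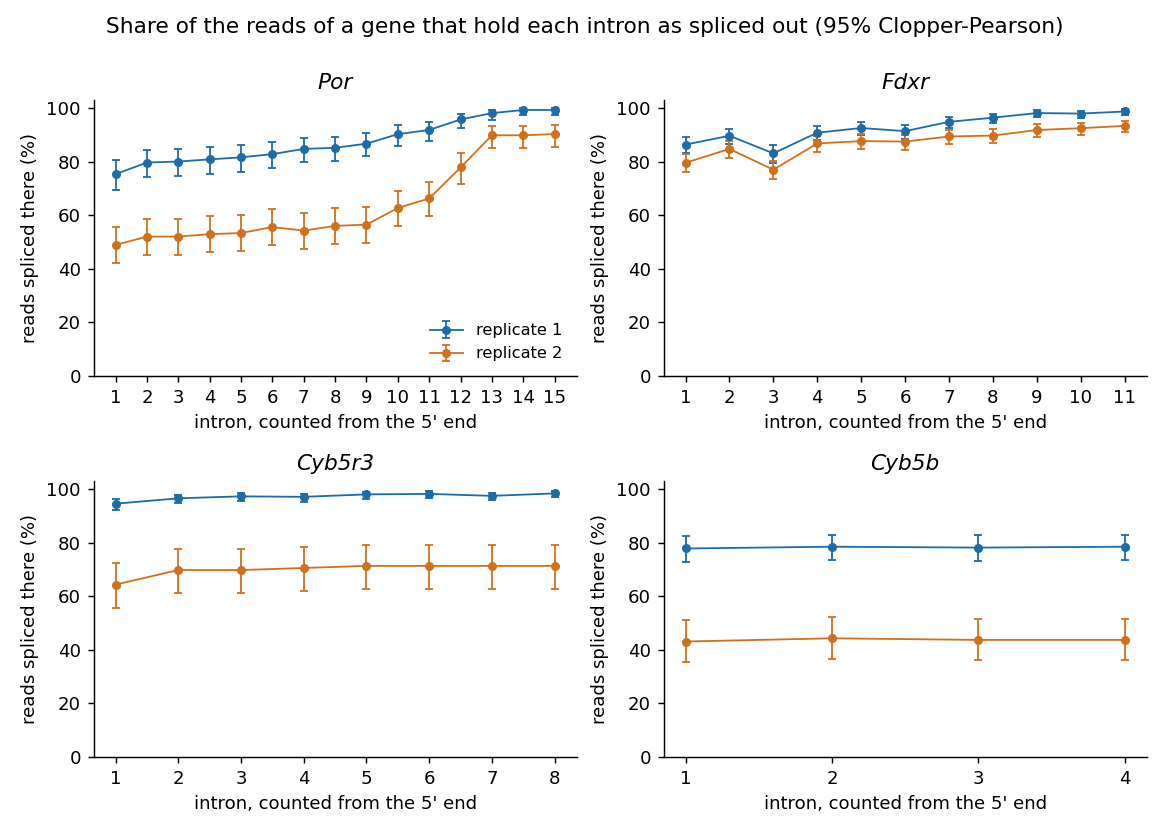
Share of the reads of Por, Fdxr, Cyb5r3 and Cyb5b that hold each intron of the main transcript as spliced out, in percent, with introns numbered from the 5′ end and 95% Clopper-Pearson intervals. Por falls towards the 5′ end to 75.3% in replicate 1 and 48.9% in replicate 2, while Cyb5b is level along the gene.

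Unannotated splice chains of the members were mostly seen once. Of 69 such chains in replicate 1 and 52 in replicate 2, 17 were in both libraries and 6 had 2 or more reads in each. Beside the 2 Fdxr chains and the Por chain given above, the other 3 belonged to Fdx1. A chain of 5 exons, with 3 and 4 reads, held an additional exon before the last exon of Fdx1-201, with the same start as the last exon of Fdx1-202 printed above. The others moved a splice site of exon 2 by 5 bases, with 2 and 4 reads for its start and 2 and 3 reads for its end. A shift of 5 bases changes the reading frame, and these chains had at most 4 reads in a library.

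Of the P450 enzymes that take electrons from the members, Cyp11a1, Cyp11b1 and Cyp21a1 had more reads than any member in both libraries, and Cyp11b2 and Cyp17a1 did not. Cyp11a1, the side-chain cleavage enzyme that starts steroid synthesis, was at 7423 and 7442 CPM in replicates 1 and 2. Cyp11b1, the 11-beta-hydroxylase, was at 5061 and 2380 CPM, and Cyp11b2, the aldosterone synthase, at 676 and 170 CPM. These 3 mitochondrial enzymes together had 11.7 reads for each Fdx1 read in replicate 1 (11.0 to 12.5) and 6.74 in replicate 2 (6.43 to 7.08). For each Fdxr read they had 23.5 (21.5 to 25.7) and 22.4 (20.6 to 24.4). The ratio to Fdxr had overlapping intervals in the libraries and the ratio to Fdx1 did not. These ratios were not adjusted for the length trend, which alone gave an expected log2 ratio of 0.64 for Fdx1 and -0.29 for Fdxr. Cyp11b1 and Cyp11b2 are close paralogs, and whether reads were assigned to the wrong one of them was not tested.

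In the endoplasmic reticulum, Cyp21a1, the 21-hydroxylase, was at 8043 and 3568 CPM in replicates 1 and 2. Cyp17a1, the 17-alpha-hydroxylase, was at 25.9 and 15.3 CPM. The pair had 29.4 reads for each Por read in replicate 1 (25.9 to 33.4) and 20.8 in replicate 2 (18.2 to 23.8). Cyp17a1, whose lyase reaction is the one best known to depend on cytochrome b5, had fewer reads than Cyb5a in both libraries. Of the 5 P450 genes, Cyp11b1, Cyp11b2 and Cyp21a1 were called lower in replicate 2 by Fisher's exact test, where 22.2% of all genes tested were. Cyp11a1 (adjusted p = 0.945) and Cyp17a1 (adjusted p = 0.190) were not called by the same exact test. Against the length trend Cyp11a1 was called higher in replicate 2, with a log2 ratio less trend of 0.33 (adjusted p = 1.44e-45, exact binomial test), and 1 of the 3 mitochondrial enzymes was also called higher with TMM.

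Other genes of these pathways were counted by list, where 13.0% of all genes tested were called higher in replicate 2 and 22.2% lower. Of 7 genes tested on a list of further ferredoxin, b5 and b5 reductase genes, 1 was higher and 2 lower in replicate 2. This list also holds diflavin reductases. One of them, with 20 reads in replicate 1 and 3 in replicate 2, was among the genes called lower. The most abundant were Cyb5r4, a b5 and reductase fusion, at 158 and 108 CPM, and Fdx1l, the second mitochondrial ferredoxin, at 17.2 and 50.6 CPM, far under Fdx1 in both libraries. Of the 3 Pgrmc-type haem-binding genes, 1 was higher and 1 lower, and Pgrmc1, which binds P450 enzymes, was at 730 and 517 CPM. Of 10 iron-sulfur cluster assembly genes, which supply the cluster of Fdx1, 3 were higher and 3 lower, led by the chaperone Hspa9 at 1230 and 822 CPM and Glrx5 at 478 and 670 CPM. Of 9 NADPH supply entries, which cover 8 genes with Nnt under 2 gene IDs, 1 was higher and 2 lower. The mitochondrial Idh2 was at 667 and 623 CPM. A list drawn up for enzymes served by Por or b5 holds reductases and fatty acid elongases beside oxidases. Of its 16 genes tested, 4 were higher and 6 lower, and most of those higher were reductases or elongases. Its most abundant genes were the desaturase Fads2 at 1397 and 750 CPM and the sterol reductase Dhcr7 at 427 and 164 CPM. Against the length trend the ferredoxin and b5 list had 0 higher and 2 lower and the iron-sulfur list 2 higher and 0 lower. The Pgrmc list had 2 higher and 1 lower and the NADPH list 1 higher and 2 lower. The list of oxidases, reductases and elongases had 4 higher and 4 lower. Over all genes tested against that trend, 12.9% were called higher and 11.0% lower.

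Marker genes of the tissue were present and differed between the libraries too, where 13.0% of all genes tested were called higher in replicate 2 and 22.2% lower. The 6 cortex markers summed to 19140 and 15099 CPM in replicates 1 and 2, with 1 higher and 4 lower. Those calls turned to 3 higher and 1 lower against the length trend, and to 2 and 2 with TMM. The 6 medulla markers summed to 11418 and 6070 CPM, with 0 higher and 4 lower. The 8 liver markers summed to 9396 and 28170 CPM, all 8 higher in replicate 2, and the 6 brown fat and adipocyte markers to 8224 and 10196 CPM, with 5 higher and 1 lower. The erythroid markers, given above, had 4 of 5 higher. Of the kidney markers, Slc12a1, Slc34a1 and Umod had 0 reads in both libraries, and Aqp2 was at 5.39 and 3.84 CPM. Several members are expressed in liver as well as in adrenal cortex, and the part of these cells in the member levels was not tested. In bulk RNA, fewer cells of a type and less RNA per cell cannot be told apart.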

How the data were processed

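The authors' deposited tables give raw counts of long reads per transcript model, 1 table for each library, with the exon number and spliced length of each model and its 1-based positions on mm10 in bases (other unit). Per the file headers and accompanying notes, reads were assigned to models with the GENCODE M21 annotation, and the model tags are those of TALON. Their versions and the aligner are not given in the labels or notes used here.

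Counts were summed by annotated gene ID, and CPM used reads on annotated genes, without spike-ins or unannotated loci. A gene needed a total of 10 reads to be tested, by two-sided Fisher's exact test, and 0.5 reads were added before the log2 ratio. Shares within a gene needed at least 20 reads per library. Calls used p-values with Benjamini-Hochberg adjustment over all genes tested, at 0.05, and a p printed without adjustment is named as such. Alternatives used TMM factors (edgeR 4.0.16), DESeq2 1.42.0 size factors or a lowess trend on length (fraction 0.3) with exact binomial tests in scipy 1.17.1. With 1 group of 2 libraries, count models such as edgeR's quasi-likelihood test have no residual degrees of freedom and were not run. The gene-level Fisher test, the length-trend test and a test of shares were run on simulated counts, but TMM and DESeq2 scaling were not. Those counts held no spread between libraries beyond counting error, planted changes and a planted length trend. Intron shares count a read for an intron when its model holds exactly that intron. All 7 members were named, with every annotated transcript with reads, each unannotated chain with at least 2 reads per library, the 5 steroid P450 genes and at most the 2 most abundant genes of each other list. The members and lists were chosen with earlier results of these data known. Part of the kidney marker list is not reported here.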

Additional observations from a re-analysis of the deposited data

Results flagged for a closer look

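Reads outside the 7 genes but overlapping them were not part of any comparison above, and 4 loci had more of them than the 3 reads that a count of 0 allows. On the strand opposite Fdx1 there were 56 reads in replicate 1 and 71 in replicate 2. In both libraries a single-exon model starts at chr9:51952110, inside the gene, with 38 reads in replicate 1 and 30 in replicate 2, but the models end at different positions. Another pair shares its end, chr9:51945846, with 14 reads in replicate 1 and 38 in replicate 2. A further 15 reads in replicate 2 lay on the strand of Fdx1 in another unannotated model, which begins where the gene ends, at chr9:51943306, and replicate 1 had 0 there. On the strand opposite Cyb5b there were 16 reads in replicate 1 and 61 in replicate 2, and 50 of the latter lay in 1 model at chr8:107184246-107184849, within the last exon. That was 5.30% and 36.5% of the reads of Cyb5b itself. On the strand opposite Cyb5a there were 15 reads in replicate 2 and 1 in replicate 1. On the strand opposite Cyb5r3 there were 5 reads in replicate 1, on the annotated gene Gm49463, and 2 in replicate 2. Fdxr and Cyb5r1 had 0 opposite-strand reads in both libraries and Por had 2 in each.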

How the results depend on the processing

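No paired analysis was possible because both libraries belong to 1 group. Against the length trend the log2 ratio of Fdx1 turned to -0.24, and that of Cyb5r1, never called, turned to 0.12 with TMM, 0.11 with DESeq2 size factors and 0.12 against the trend. The 2581 genes lower in replicate 2 became 1328 with TMM, 1347 with DESeq2 size factors, 1218 against the length trend and 1210 at 2-fold or more; higher calls went from 1510 to 1981 with TMM. Without Genomic models, 72 genes had a higher and 734 a lower Known share. A lower single-exon share was called for 17 genes, for 10 at 50 or more reads and for 100 with Genomic models only. With Genomic models only, the differences in points turned to -0.395 for Fdx1, -0.392 for Por, -0.515 for Cyb5a, -4.97 for Cyb5b and -1.65 for Cyb5r3, since replicate 2 held most of these pieces as ISM. The members' isoform shares kept their calls in every setting run. Other causes were not tested. With 29 and 37 reads, Cyb5r1 is limited by depth. With 1 library left out, a level is that of the other library, and no SD can be had.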
